A study of Mus musculus with 6 samples.

Results

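The Nkx genes encode homeodomain transcription factors, and 9 of them (Nkx1-2, Nkx2-1, Nkx2-2, Nkx2-3, Nkx2-5, Nkx2-9, Nkx3-2, Nkx6-1 and Nkx6-2) were followed here for trimethylation of histone H3 on lysine 27 (H3K27me3) in mouse ovarian granulosa cells (GCs). They were chosen by name, with earlier results of these data known. Others of the 14 Nkx genes in the annotation were kept as a comparison. The annotation held 22028 protein-coding genes, of which 4283 had an H3K27me3 peak in at least 1 library. For each gene, the peaks lying between 5 kb upstream of the transcription start site (TSS) and the gene end were collected from each library.

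GCs, the somatic cells that surround the oocyte, came from 3-week-old ICR females primed with PMSG, a gonadotropin that drives follicle growth. The females received a single intraperitoneal injection of phosphate-buffered saline (PBS, the control group) or of cyclophosphamide (CTX), an alkylating drug used in chemotherapy, and GCs were isolated 6 h later. Each of the 3 PBS and 3 CTX libraries was made from the pooled GCs of 3 mice by anti-H3K27me3 CUT&Tag, in which an antibody directs a transposase to marked chromatin. The comparison addresses whether the treatment was accompanied by loss of the mark at particular genes.

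H3K27me3 is written by Polycomb repressive complex 2 and is bound by complexes that keep genes silent. Its broadest domains lie over CpG-rich genes for developmental regulators, among which homeobox genes are a classical example. Nkx proteins specify cell types in tissues that GCs do not belong to. Nkx2-2, Nkx2-9, Nkx6-1 and Nkx6-2 act in the ventral neural tube under Sonic hedgehog, Nkx2-2 and Nkx6-1 act again in pancreatic endocrine cells, Nkx2-1 acts in thyroid, lung and ventral forebrain, Nkx2-5 acts in the heart, Nkx2-3 acts in spleen and gut, Nkx3-2 acts in cartilage, and Nkx1-2 is active in the caudal epiblast of the embryo. The Nkx2 and Nkx6 factors repress many of their targets together with corepressors of the Groucho family.

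A stretch of DNA from the peaks of Nkx6-1 and of Nkx3-2 is shown to give the kind of sequence under the mark. For each gene, the median position of its strongest summit over the libraries was taken, and the 300 bases around it were read from the GRCm38 (mm10) sequence of RefSeq on the minus strand, which is the gene's own. CG dinucleotides, the feature that marks Polycomb target genes in mammals, are in capitals. The Nkx6-1 (chr5:101663215-101663514) and Nkx3-2 (chr5:41762472-41762771) stretches are both intronic. The Nkx6-1 stretch holds the strongest summit of 5 libraries. The strongest summits of Nkx3-2 were scattered over the gene, and its stretch, around their median position, holds that of CTX replicate 1 alone, with the centre under a peak in 3 libraries.
Nkx6-1: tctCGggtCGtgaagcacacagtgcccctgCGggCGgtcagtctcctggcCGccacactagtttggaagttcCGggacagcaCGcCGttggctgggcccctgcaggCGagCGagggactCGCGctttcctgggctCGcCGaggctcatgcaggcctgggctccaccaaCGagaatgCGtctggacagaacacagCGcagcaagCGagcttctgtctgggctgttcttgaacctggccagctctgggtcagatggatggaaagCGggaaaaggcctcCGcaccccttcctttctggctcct
Nkx3-2: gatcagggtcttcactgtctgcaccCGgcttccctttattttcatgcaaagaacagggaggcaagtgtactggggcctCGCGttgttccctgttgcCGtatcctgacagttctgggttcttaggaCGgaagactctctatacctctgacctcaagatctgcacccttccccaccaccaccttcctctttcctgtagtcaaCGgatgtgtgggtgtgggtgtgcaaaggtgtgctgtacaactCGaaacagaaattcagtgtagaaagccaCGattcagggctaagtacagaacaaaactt

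The Nkx6-1 stretch held 20 CG dinucleotides at a GC content of 63.7%, and the Nkx3-2 stretch held 8 at 50.3%. The ratio of observed to expected CG was 0.658 in the Nkx6-1 stretch and 0.422 in the Nkx3-2 stretch. When the peaks of all libraries were merged into regions, the 36 regions in the Nkx windows had a median GC content of 57.4% and 4.28 CG per 100 bases. The other 12344 regions on the chromosomes had medians of 51% and 1.43 CG per 100 bases. Those regions were not limited to gene windows, so the 2 sets are unlike in place, and this was not adjusted for. Regions in the Nkx windows were also longer, with a median of 412 bp against 235 bp. Merging lengthens regions that were called in several libraries, and the lengths were not adjusted for this. The promoters of the 9 genes, taken from RefSeq as 250 bases before to 50 after the mRNA start, held between 9 (Nkx2-5) and 40 (Nkx6-1) CG, where the median of 32817 promoters was 7. Their percentiles among all promoters ran from 56.6 (Nkx2-5) to 96.5 (Nkx6-1). Nkx2-1 stood at 62.1 and Nkx2-3 and Nkx2-9 at 67.0, so not all were rich in CG. At least 1 CG was present in 94.6% of those promoters. CG reads the same on both strands, so 1 strand was counted.

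H3K27me3 peaks were found at every one of the 9 genes in at least 1 library. They were present at 9, 8 and 8 genes in PBS replicates 1, 2 and 3, and at 7, 8 and 6 genes in CTX replicates 1, 2 and 3 (8.33 ± 0.577 and 7 ± 1, SD, n = 3 each). Nkx2-1, Nkx2-2, Nkx2-5, Nkx2-9, Nkx3-2 and Nkx6-1 had a peak in all 6 libraries. For comparison, 9.55% to 12.3% of all protein-coding genes had a peak in their window in a PBS library and 7.16% to 10.6% in a CTX library. The 9 genes were chosen with earlier results of these data known, so their high share may in part be set by that choice.

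The libraries themselves differed. The depth recovered from the peak lists was 1375 to 1957 reads per Mb of effective genome for PBS and 1118 to 1630 for CTX, and the lists held 4244 to 6378 and 2916 to 4993 peaks, respectively. CTX replicate 3 was the shallowest library with the shortest list, and PBS replicate 1 was the deepest with the longest. As a check of the labelled cell type, no H3K27me3 peak lay within 2 kb of the TSS of any of 12 granulosa cell genes, such as Foxl2 and Fshr, in any library. None lay at 6 oocyte genes either, whereas 4 of 6 genes of theca and stroma cells (Insl3, Pdgfra, Col1a1 and Tcf21) carried a promoter peak. Of these 4 genes, 4, 3 and 4 had the peak in PBS replicates 1 to 3 and 0, 4 and 4 in CTX replicates 1 to 3. Of 5 blood and endothelial genes, Ptprc and Kdr had a promoter peak in 1 library each. Most protein-coding genes had no peak in a given library, so the absence of peaks says little about the cell type. Any part of cell mixture in the results was not tested. A smaller share of marked cells and less of the mark per cell cannot be told apart in pooled material.

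The 9 windows together held less peak sequence after CTX treatment. Peaks covered 12397, 8490 and 9363 bp of them in PBS replicates 1, 2 and 3. They covered 3821, 7253 and 2175 bp in CTX replicates 1, 2 and 3. Every CTX library was below every PBS library, with CTX replicate 2 nearest to the PBS values, and the means were 10083 ± 2051 bp and 4416 ± 2591 bp (SD, n = 3 each). The number of separate peaks in the windows was 29, 19 and 22 in the PBS libraries and 13, 16 and 7 in the CTX libraries. Pairs of libraries of like depth gave the same order. PBS replicate 2 (1375 reads per Mb) had 8490 bp and CTX replicate 1 (1433 reads per Mb) had 3821 bp, with 7 genes lower, 1 higher and 1 equal in the CTX library. PBS replicate 3 (1595 reads per Mb) had 9363 bp and CTX replicate 2 (1630 reads per Mb) had 7253 bp, again with 7 genes lower, 1 higher and 1 equal. The whole lists also covered less in the CTX library of each pair (1.74 and 1.45 Mb in the first, 2.49 and 1.94 Mb in the second). No share over all genes is given for these pairs, and any part of depth was not tested. As a share of all bases covered in a library, the windows took 4335 ± 556 ppm for PBS and 2902 ± 734 ppm for CTX (SD, n = 3 each).

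**Figure D1:**
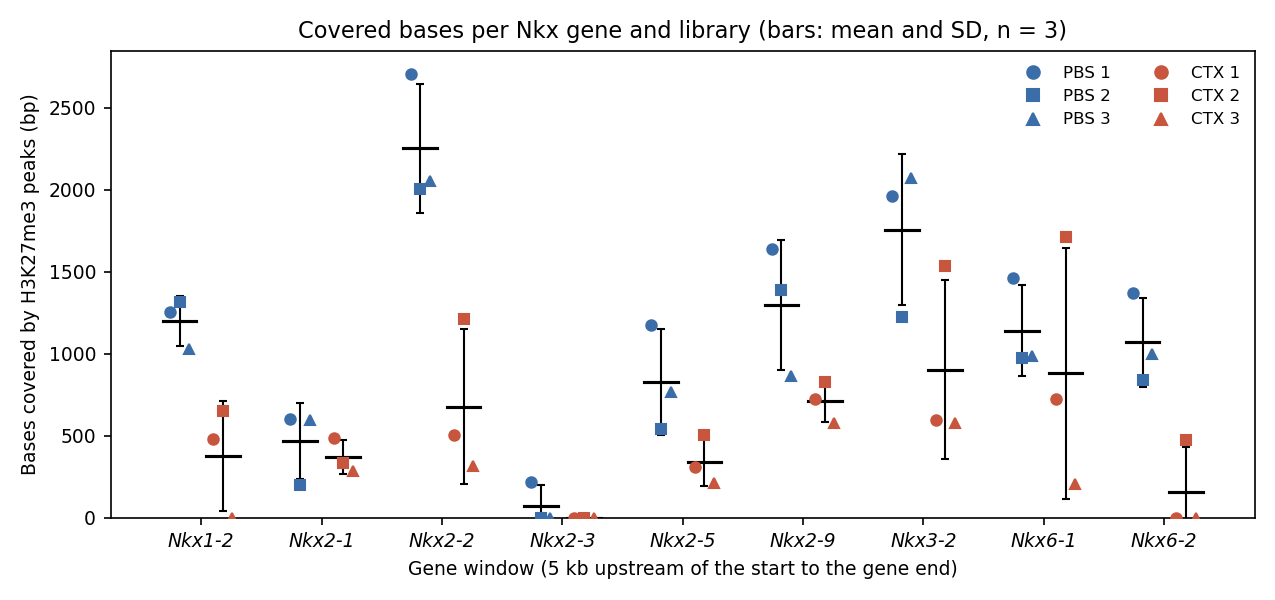
Bases covered by H3K27me3 peaks (bp, vertical axis) in the window of each Nkx gene, with 1 point per library (blue PBS, red CTX; circles, squares and triangles are replicates 1, 2 and 3) and black bars for mean and SD. The 3 CTX points lie below the 3 PBS points for Nkx1-2, Nkx2-2, Nkx2-5, Nkx2-9 and Nkx6-2, and overlap them for the other 4 genes.

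In covered bases, the CTX libraries were all lower than the PBS libraries at 5 of the 9 genes (Nkx1-2, Nkx2-2, Nkx2-5, Nkx2-9 and Nkx6-2) and all higher at none. Among the 4283 protein-coding genes with a peak in any library, 14.0% were lower in this way and 0.280% were higher. Among the 1006 genes with a peak in all 6 libraries, 30.3% were lower, and 3 of the 6 Nkx genes of that kind were (Nkx2-2, Nkx2-5 and Nkx2-9). No gene of the 4283 passed the two-sided exact permutation test after Benjamini-Hochberg adjustment. With 3 libraries a side the exact permutation test cannot go below p = 0.1, a value that 610 genes reached, and the lowest adjusted p-value was 0.702, so 0 genes had an unadjusted p under 0.05. The differences below are therefore given as values with the spread between libraries.

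Among the genes of the ventral neural tube, Nkx2-2, which specifies V3 interneurons and pancreatic endocrine cells, carried the most peak sequence in the PBS group. At 21698 bp, its window was also the longest. As a share of the window Nkx2-9 was covered more, over 23.8%, 20.1% and 12.5% in PBS replicates 1 to 3. The shares for Nkx2-2 were 12.5%, 9.23% and 9.46%. Its window (chr2:147177546-147199243) was covered over 2706, 2002 and 2052 bp in PBS replicates 1 to 3 and over 504, 1214 and 316 bp in CTX replicates 1 to 3. The groups did not overlap, and the mean was 3.32-fold lower after CTX treatment (2253 ± 393 and 678 ± 474 bp, SD, n = 3 each; exact permutation p = 0.1, adjusted p = 0.702). The number of peaks was 7, 5 and 6 in the PBS libraries and 2, 3 and 1 in the CTX libraries, so the domain was called in fewer pieces as well as over fewer bases. With the window taken from the RefSeq mRNA start, the difference in means of -1575 bp was -1044 bp.

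Nkx6-2, which acts beside Nkx6-1 in motor neuron progenitors and later in myelinating glia, had no call in 2 CTX libraries. Its window (chr7:139579376-139587797) was covered over 1371, 842 and 997 bp in the PBS libraries and over 0, 472 and 0 bp in CTX replicates 1, 2 and 3. The groups did not overlap (1070 ± 272 and 157 ± 273 bp, SD, n = 3 each; exact permutation p = 0.1, adjusted p = 0.702). The CTX replicate 2 peak lay 1682 to 2153 bp upstream of the mRNA start, and no coding exon was under a peak in a CTX library.

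Nkx6-1, needed for pancreatic beta cells and motor neurons, had the widest spread between CTX libraries. Its window (chr5:101658139-101669996) was covered over 1463, 976 and 985 bp in the PBS libraries and over 722, 1713 and 207 bp in the CTX libraries. The highest and the lowest value both belonged to CTX libraries, replicates 2 and 3, so the groups overlapped (1141 ± 279 and 881 ± 765 bp, SD, n = 3 each; exact permutation p = 0.5, adjusted p = 1). Without CTX replicate 3 the difference turned to 76.2 bp more in the CTX group.

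Nkx2-9, a close relative of Nkx2-2 expressed in the floor plate region, had a peak in every library. Its window (chr12:56611389-56618284) was covered over 1641, 1387 and 865 bp in the PBS libraries and over 724, 830 and 575 bp in the CTX libraries. The groups did not overlap, but the lowest PBS library and the highest CTX library were only 865 and 830 bp (means 1298 ± 396 and 710 ± 128 bp, SD, n = 3 each; exact permutation p = 0.1, adjusted p = 0.702). As ppm of all bases covered in a library the groups overlapped, with a mean difference of -58.9 ppm.

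Nkx2-1, the thyroid, lung and forebrain factor, lies 74.5 kb from Nkx2-9 on chromosome 12 and was much less covered. Its window (chr12:56531958-56541908) held 604, 200 and 596 bp in the PBS libraries and 485, 333 and 288 bp in the CTX libraries. The values overlapped, with PBS replicate 2 the lowest of all 6 (467 ± 231 and 369 ± 103 bp, SD, n = 3 each; exact permutation p = 0.6, adjusted p = 1).

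Nkx2-5, an early regulator of heart muscle, had 1 to 3 peaks in every library. Its window (chr17:26838664-26850009) was covered over 1175, 539 and 767 bp in the PBS libraries and over 309, 506 and 214 bp in the CTX libraries. PBS replicate 2 and CTX replicate 2 almost met, and the groups did not overlap (827 ± 322 and 343 ± 149 bp, SD, n = 3 each; exact permutation p = 0.1, adjusted p = 0.702).

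Nkx3-2, which maintains chondrocyte progenitors, had values of 1964, 1227 and 2073 bp in the PBS libraries and 599, 1532 and 575 bp in the CTX libraries (window chr5:41761483-41769501). CTX replicate 2 lay above PBS replicate 2, so the groups overlapped (1755 ± 460 and 902 ± 546 bp, SD, n = 3 each; exact permutation p = 0.2, adjusted p = 0.867).

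Nkx1-2, a gene of axial progenitors, had 1252, 1317 and 1028 bp in the PBS libraries and 478, 653 and 0 bp in the CTX libraries (window chr7:132594878-132604637). The groups did not overlap (1199 ± 152 and 377 ± 338 bp, SD, n = 3 each; exact permutation p = 0.1, adjusted p = 0.702), and CTX replicate 3 had no call.

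Nkx2-3, the spleen and gut factor, had a single peak of 221 bp in PBS replicate 1, the deepest library, and none in the other 5 (window chr19:43607325-43615892). That summit had a pileup of 47 reads over a local background of 51.9 times the genome-wide floor and stood at the 37.6th percentile of its library. No value was recorded where no peak was called, so a missing call says nothing about how many reads lay there. No Nkx gene had a peak in all PBS libraries and in no CTX library, a pattern that 1.73% of the 4283 genes had.

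The strength of a peak within its own library was described by the rank of its strongest −log10 q-value, with 100 for the strongest peak of the list and 0 for a gene without a peak. Averaged over the 9 genes, the rank percentile was 74.2, 62.6 and 72.4 in the PBS libraries and 41.5, 65.8 and 38.8 in the CTX libraries. CTX replicate 2 lay above PBS replicate 2, so the groups overlapped (69.7 ± 6.28 and 48.7 ± 14.9, SD, n = 3 each). A percentile also depends on the length of the list, which differed between libraries. The difference in means of -21.1 was -15.7 when equal peak numbers were kept in each library. Over the 6 libraries Nkx2-9 ranked highest with a mean of 84.3, followed by Nkx2-5 with 83.2, Nkx2-2 with 77.3, Nkx6-1 with 72.7, Nkx3-2 with 69.7 and Nkx1-2 with 62.5. Nkx2-1 and Nkx6-2 had means of 38.8 and 38.0, and Nkx2-3 had 6.26. The ranges of neighbours in this order overlapped, for example 60.8 to 95.8 for Nkx2-9 and 70.7 to 90.7 for Nkx2-5. Nkx6-1 had the most even ranks in the PBS group (95.3, 91.6 and 89.2, SD 3.07) and a wide spread after CTX treatment (37.4, 85.0 and 37.8, SD 27.4). The ranks of Nkx2-5 overlapped between the groups (90.7, 74.2 and 86.5 for PBS, 70.7, 89.0 and 88.0 for CTX), unlike its covered bases.

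**Figure D2:**
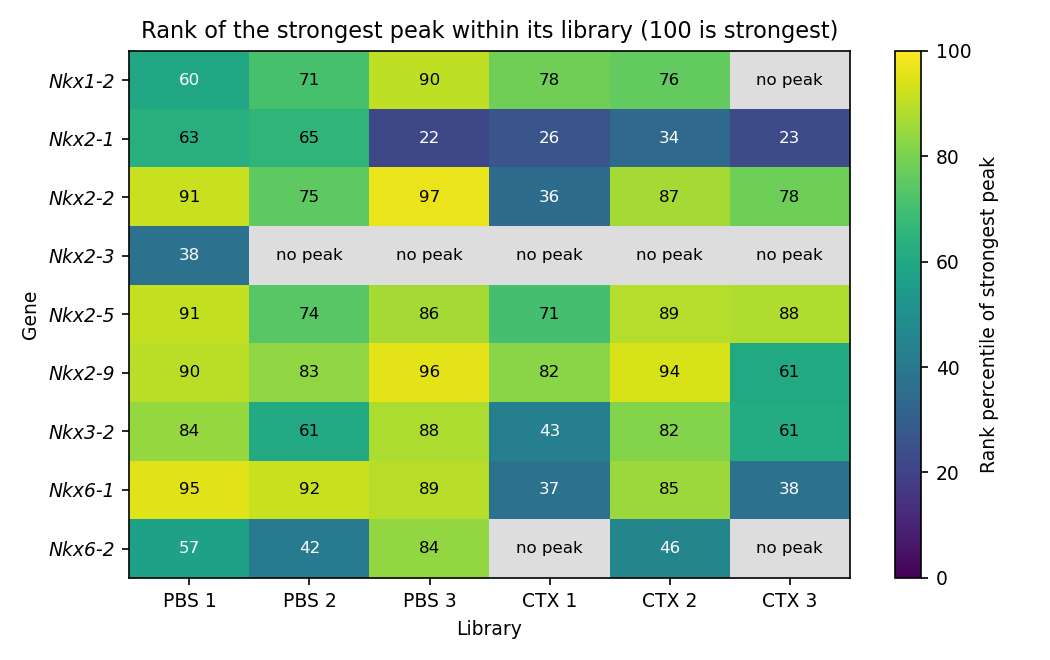
Rank percentile (colour and number, 100 for the strongest peak of a library, dimensionless) of the strongest peak in the window of each Nkx gene (vertical axis) in each of the 6 libraries (horizontal axis), with grey for no peak. Nkx2-5 and Nkx2-9 stay above 60 in all 6 libraries, and Nkx2-3 has a value in PBS replicate 1 only.

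Peak positions recurred between libraries. Of the 146 summits in the windows, 100 were from PBS and 46 from CTX libraries. By the GENCODE annotation, 65 lay in introns, 35 upstream of the gene, 28 in coding exons and 18 in untranslated regions, and 72 were within 2 kb of the RefSeq mRNA start. In Nkx2-5 a summit was found in all 6 libraries within 48 bp, 1902 bp after the mRNA start, in an intron. In Nkx3-2 a summit recurred in all 6 libraries within 25 bp in the intron (chr5:41762865-41762890), and another within 179 bp at the 3′ end of the gene. In Nkx6-1 a summit recurred within 19 bp in an intron (chr5:101663353-101663372) in all PBS libraries and in CTX replicates 1 and 2. In Nkx2-2 a summit recurred in all 6 libraries within 172 bp (chr2:147181178-147181350), 5171 bp after the start of the RefSeq mRNA. In Nkx2-9 the summits of all 6 libraries spread over 462 bp of its last exon.

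Other summits, picked here after their positions were seen, were called in the PBS libraries alone or nearly so. In Nkx2-2 the positions 4670 and 5960 bp after the mRNA start each had a summit in all 3 PBS libraries and in no CTX library. The same held for the position 798 bp upstream of the Nkx2-5 mRNA start. The PBS peaks that held the 4670 bp summit of Nkx2-2 were overlapped in part by a peak of CTX replicate 2 (chr2:147181936-147182318). That region was thus called in a CTX library, with its summits elsewhere. The summits 9035 bp upstream of Nkx2-2, near the start of its longest transcript, were found in 3 PBS and 1 CTX libraries. Those 2003 bp upstream of Nkx6-2 were likewise found in 3 PBS and 1 CTX libraries. Some positions went the other way. Summits 3724 bp after the Nkx2-1 mRNA start were found in 0 PBS and 2 CTX libraries, and those 3144 bp upstream of Nkx6-1 in 1 PBS and 2 CTX libraries. A few others were called in 1 CTX library alone. The GENCODE starts of Nkx2-2 and Nkx2-5 lie 7841 and 3444 bp upstream of the RefSeq mRNA starts. Within 2 kb of the RefSeq mRNA start, Nkx2-5, Nkx2-9 and Nkx3-2 had a peak in all 6 libraries, Nkx6-1 in 5, Nkx6-2 in 4, Nkx1-2 in 3, Nkx2-2 in 2, Nkx2-3 in 1 and Nkx2-1 in 0. At Nkx2-1 the mark was thus called over the gene body and in upstream sequence, and not at the mRNA start itself.

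**Figure D3:**
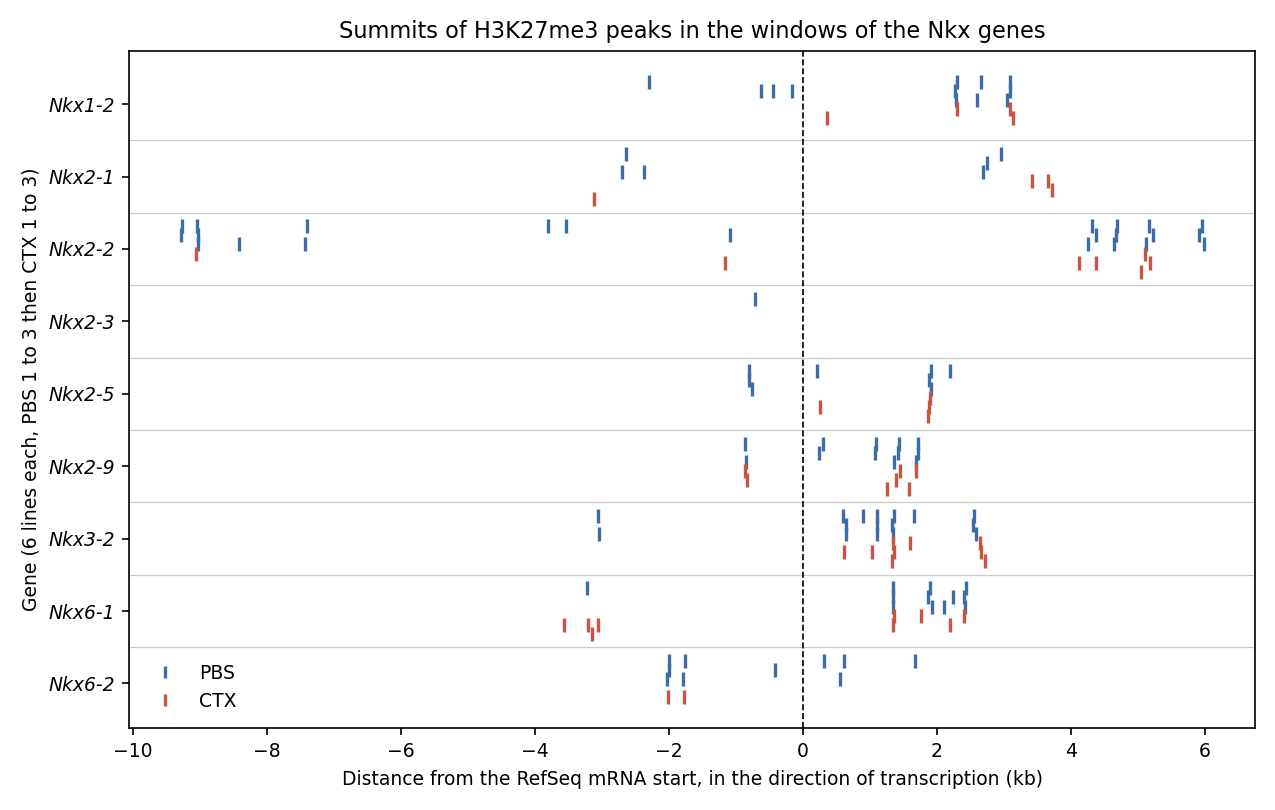
Positions of peak summits in the windows of the 9 Nkx genes, as distance from the RefSeq mRNA start (kb, negative is upstream), with 6 lines per gene for PBS replicates 1 to 3 (blue) and CTX replicates 1 to 3 (red). Many positions recur in both groups, such as those within 48 bp in Nkx2-5 and 25 bp in Nkx3-2 in all 6 libraries, and fewer summits are called in the CTX libraries (46 against 100).

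The height of the summits was compared at a common depth. From the fold enrichment and the p-value at each summit the number of overlapping reads (the pileup) was solved, and the highest pileup in a window was scaled to 1000 reads per Mb. Counting error alone is wide at these depths. The 92 reads at Nkx2-5 in PBS replicate 1 have a 95% Poisson interval of 74.2 to 113, and the 20 reads at Nkx2-1 in CTX replicate 3 one of 12.2 to 30.9.

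Nkx6-1 showed the largest difference of the 6 genes with a peak in every library. Its scaled pileup was 41.4, 40.0 and 40.1 reads in the PBS libraries and 22.3, 28.8 and 20.6 in the CTX libraries. The groups did not overlap, and the mean log2 difference was -0.78 (means 40.5 ± 0.764 and 23.9 ± 4.36 reads, SD, n = 3 each; exact permutation p = 0.1, adjusted p = 0.233). Its covered bases had overlapped, so the height and the extent of its peaks gave different pictures. The CTX replicate 3 value came from an upstream summit, and those of the other libraries came from the recurrent intronic summit. Without CTX replicate 3 the log2 difference was -0.67 for Nkx6-1 and -0.69 for Nkx2-2, so Nkx6-1 was then not the largest.

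Nkx2-2 had scaled pileups of 37.8, 40.7 and 50.2 reads in the PBS libraries and 22.3, 31.3 and 27.7 in the CTX libraries, again without overlap (log2 difference -0.66). Nkx2-5 had 47.0, 43.6 and 48.3 reads in the PBS libraries and 34.2, 40.5 and 40.2 in the CTX libraries (log2 difference -0.28), the smallest difference of the 6. The groups were also apart for Nkx2-9 and Nkx3-2, with log2 differences of -0.37 and -0.41 (exact permutation p = 0.1 and adjusted p = 0.233 for each of these 4 genes). For Nkx2-1 the log2 difference was -0.41 with overlapping groups (exact permutation p = 0.2, adjusted p = 0.331).

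Lower scaled pileups with groups apart were thus found at 5 of the 6 Nkx genes, where 40.5% of the 1000 genes with a solved pileup in all 6 libraries had them. None of the 6 had a pileup more than 2-fold lower, and 0.900% of the 1000 genes had. The median log2 difference was -0.41 over the 6 Nkx genes and -0.29 over the 1000 genes. The median ratio of CTX to PBS covered bases was 0.53 over the 6 Nkx genes and 0.632 over the 1000 genes, of which 94% had less coverage in the CTX group. No pileup passed the adjusted test, for which the lowest adjusted p-value over 1000 genes was 0.233, and 0 genes could have an unadjusted p under 0.05.

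**Figure D4:**
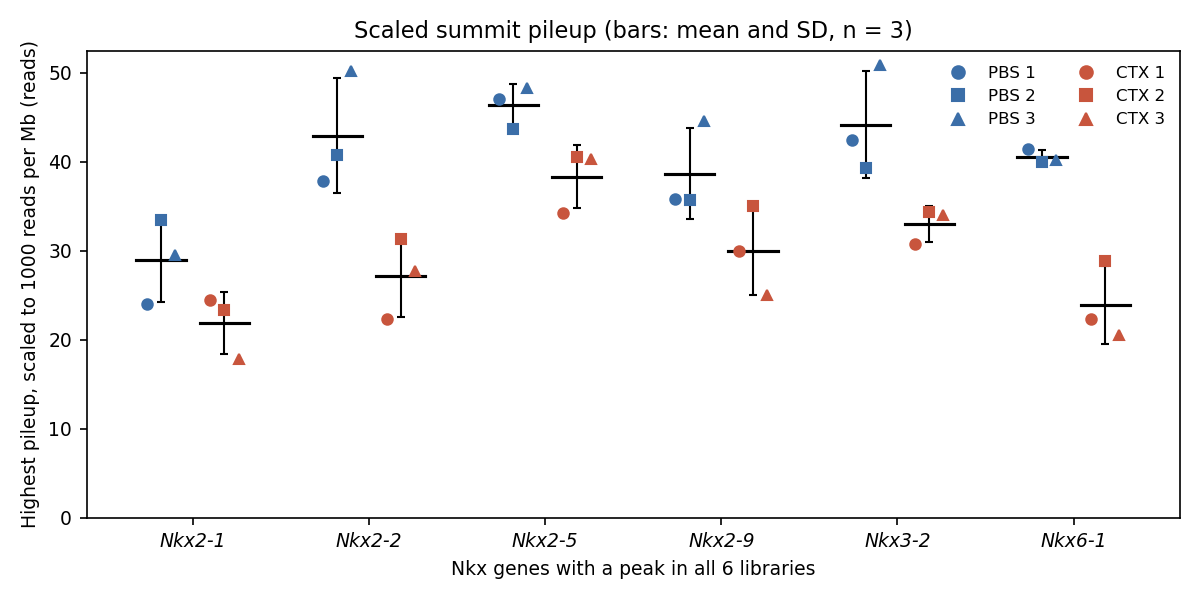
Highest pileup in the window, scaled to 1000 reads per Mb (reads, vertical axis), of the 6 Nkx genes with a peak in all libraries, with 1 point per library (blue PBS, red CTX; circles, squares and triangles are replicates 1, 2 and 3) and black bars for mean and SD. The CTX points lie below the PBS points for every gene but Nkx2-1.

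The Nkx summits stood over a high local background. Whether that background was drawn from the library itself or from a control library is not stated in the sources used here. If it was drawn from the library itself, it holds the H3K27me3 reads around the summit. Its level then cannot be told apart from the mark, and the fold enrichment sets the mark against its own surroundings. This was not tested. MACS2 compares each summit with a local background, and this background was set here against the floor that the program uses for the whole genome, which removes the depth of the library. The median local background at Nkx summits was 59.8, 55.4 and 60.2 times the floor in the PBS libraries and 44.6, 47.9 and 36.7 times in the CTX libraries. The groups did not overlap (58.5 ± 2.65 and 43.1 ± 5.75, SD, n = 3 each). Over all summits of a library the medians were 23.0, 24.9 and 27.5 for PBS and 16.1, 18.7 and 14.8 for CTX, so the local background was lower after CTX treatment at the Nkx genes and over the whole lists. Per library, the Nkx median was 2.19 to 2.76 times that of all summits.

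The fold enrichment over this background was lower at Nkx summits than over the lists. Its median was 2.32 to 3.01 over the libraries at Nkx summits and 3.24 to 4.06 over all summits. The median pileup was nevertheless higher, with 29.5 to 62 reads against 17 to 31. Since MACS2 tests each summit against its local background, the covered bases of these genes depend on that background as well as on the reads.

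At the recurrent Nkx2-5 summit, where the same 48 bp were called in every library, these quantities could be followed at 1 place. Its pileup was 92, 60 and 77 reads in PBS replicates 1 to 3 and 49, 66 and 45 in CTX replicates 1 to 3. The local background was 84.8, 84.6 and 86.6 times the floor in the PBS libraries and 62.8, 66.8 and 59.4 times in the CTX libraries, without overlap (85.3 ± 1.10 and 63.0 ± 3.69, SD, n = 3 each). The fold enrichment was 2.72, 2.51 and 2.73 in the PBS libraries and 2.63, 2.94 and 3.22 in the CTX libraries, which overlapped. The recurrent intronic Nkx3-2 summit gave a like picture, with local backgrounds of 85.2 ± 6.02 and 62.5 ± 1.3 times the floor and fold enrichments of 2.19 ± 0.444 and 2.19 ± 0.129 (PBS and CTX, SD, n = 3 each). At the recurrent Nkx2-2 summit the backgrounds were 59.5 ± 1.17 and 41.8 ± 5.04 times the floor. These summits were singled out after their values were seen.

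**Figure D5:**
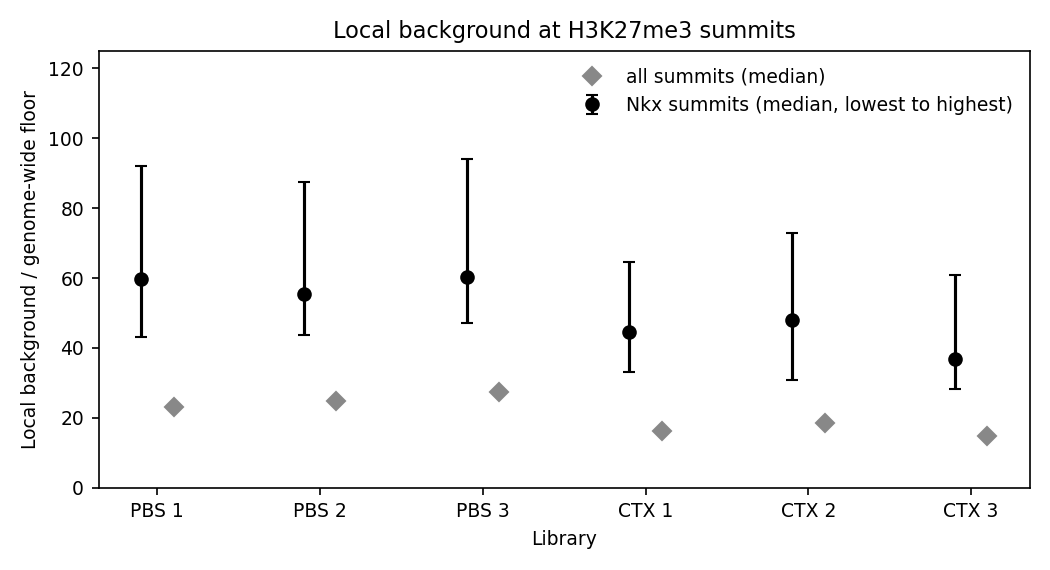
Local background at peak summits divided by the genome-wide floor of the library (ratio, vertical axis) in each library, with black points and bars for the median and the lowest to highest value over Nkx summits, and grey diamonds for the median over all summits. The Nkx medians are 55.4 to 60.2 for PBS and 36.7 to 47.9 for CTX, above those of all summits in every library.

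Of 4 other Nkx genes, 3 had a peak in any library and 1 in all 6. Nkx1-1, the paralog of Nkx1-2, had a peak in all 6 libraries, with 1579, 1128 and 1503 bp in the PBS libraries and 580, 1063 and 435 bp in the CTX libraries, and the groups did not overlap. Nkx2-6, which acts in the pharyngeal endoderm, had a peak in all 3 PBS libraries and in CTX replicate 2 alone. Nkx6-3, a stomach factor, had a peak in PBS replicate 1 and CTX replicate 1, and Nkx2-4, which lies 92.1 kb from Nkx2-2, had none in any library.

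Genes that work with the Nkx factors were then counted from lists, and each count of genes that were lower with groups apart is to be read beside the 14.0% of the 4283 genes with a peak in any library and the 30.3% of the 1006 with a peak in all 6. Of 22 genes of hedgehog signalling and ventral neural tube patterning, 19 had a peak in any library and 7 in all 6. Coverage was lower with groups apart at 3 of them, namely the hedgehog effector Gli1 and the oligodendrocyte and motor neuron factors Olig1 and Olig2, and higher at none. Gli1 had 420, 397 and 595 bp in the PBS libraries and no peak in the CTX libraries. Olig1 had 2303, 1597 and 1545 bp in the PBS libraries and 1349, 1165 and 1131 bp in the CTX libraries. The neural tube factors Dbx2 and Pax6 and the hedgehog receptor component Smo ranked high in all libraries, with mean percentiles of 95.7, 93.8 and 90.7, and their groups overlapped. The mean covered length of Smo was 27 bp higher in the CTX group. Its scaled pileup was 14.3, 16.0 and 7.53 reads in the PBS libraries and 21.6, 19.6 and 25.0 in the CTX libraries, all higher (log2 difference 0.88, exact permutation p = 0.1, adjusted p = 0.233). Of the 1000 genes, 2.50% had higher scaled pileups with groups apart, and none of the 6 Nkx genes did.

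Of 11 heart genes, 6 had a peak in any library, and coverage was lower with groups apart at 4 (Gata5, Tbx5, Hand2 and Isl1). Gata5, an endocardial factor, had 1184, 1095 and 1303 bp in the PBS libraries and 400, 657 and 359 bp in the CTX libraries. Tbx20, a T-box factor of the heart with a peak in all 6 libraries, had overlapping groups. Gata4 and Gata6, partners of Nkx2-5 in the heart that are also granulosa cell factors, had no peak in any library. Of 9 lung, thyroid and forebrain genes, 7 had a peak in any library and 1 was lower with groups apart (the thyroid and kidney factor Pax8). Lhx8 and Lhx6, which act downstream of Nkx2-1 in the ventral forebrain, had a peak in every library with overlapping groups.

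All 11 genes of pancreas, gut and skeleton had a peak in any library, and 4 were lower with groups apart (Pdx1, Mafa, Pax1 and Sox9). Pax1, which acts in the sclerotome together with Nkx3-2, had 1603, 1301 and 1867 bp in the PBS libraries and 400, 1026 and 211 bp in the CTX libraries. Ptf1a and Col2a1, a pancreatic factor and the main cartilage collagen, had a peak in every library with overlapping groups. Pax9, which lies 78.5 kb from Nkx2-9, had a peak in 5 libraries. Of the 6 Groucho corepressors, Tle3 alone had a peak, in PBS replicates 1 and 2. No gene of these lists had a covered length for which all CTX libraries were higher, as 0.280% of the 4283 genes did.

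The 4 genes whose covered bases were most like the mean of the 9 Nkx genes over the 6 libraries were Tlx1, Prrt3, Fbxo2 and Erich5, with Euclidean distances of 0.534 to 0.731 on the log2(bp + 100) scale. Among the 9 genes themselves Nkx2-5 was nearest to that mean with a distance of 0.435, and Nkx2-3 was farthest with 6.08. Tlx1, a homeobox gene needed for the spleen, had 1036, 675 and 733 bp in the PBS libraries and 210, 655 and 211 bp in the CTX libraries.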

How the data were processed

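Peak lists of 6 anti-H3K27me3 CUT&Tag libraries were used, 3 per group. The authors aligned reads with BWA to mm10, kept uniquely mapped, de-duplicated reads and called peaks in each library with MACS2 (version 2.1.0) at a q-value threshold of 0.05; a control library is not stated in the sources used here. The deposited lists give for each summit a fold enrichment (the ratio of pileup to local background, by the authors' peak caller) and the −log10 p-value and −log10 q-value computed by the authors.

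Overlapping or touching intervals of a library were merged into 1 peak. Gene windows ran from 5 kb upstream of the GENCODE M21 gene start to the gene end (mm10, GRCm38, 1-based), and RefSeq mRNA starts were used for distances. Pileup and background were solved from fold enrichment and p-value at 99.98% to 100% of summits. The most frequent background is the genome-wide floor and gives the depth, with reads extended by 200 bp. The lists hold no read totals, so depths are estimates, and intervals cover counting error only.

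Group differences were tested by exact permutation (two-sided, 20 assignments) with Benjamini-Hochberg adjustment over all protein-coding genes with a peak, using Python 3.11.15, numpy 2.4.6 and pandas 2.3.3. The code was tested on simulated data. The p-values set each group difference against those of all assignments of the libraries to groups. The libraries differ in depth and list length as well as in the pool of mice. The 9 genes and all lists were chosen with earlier results of these data known. All 9 genes were named, with up to 4 genes of each partner list that had a peak in all 6 libraries and the highest mean rank percentile, 4 other Nkx genes and the 4 nearest patterns. Some genes and sequences of the lists and the naming rule are not reported here and are in no list count. Genes counted as groups apart (up to 4 a list), Gli1, Pax9 and Tle3 were named after their values were seen. The alternatives were other q-value thresholds, equal peak numbers, other windows, joined intervals, ppm of covered bases, each library left out, and the replicate number as a block. The RefSeq mRNA start was added as an alternative after the data were seen.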

Additional observations from a re-analysis of the deposited data

How the results depend on the processing

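The lower coverage of the Nkx windows in the CTX group kept its direction under every alternative for the sum over the 9 genes, and its size depended on the window and on joining. The difference in covered bases (-5667 bp) was -2777 bp within 2 kb of the TSS and -8004 bp with intervals joined within 1000 bp. The difference in the number of genes with a peak (-1.33) was -2.33 within 2 kb of the TSS and -3.33 at a q-value of at most 1e-05. The number of genes that were lower with groups apart (5) was 3 within 2 kb of the TSS (Nkx2-2, Nkx2-9 and Nkx6-2), 2 with equal peak numbers (Nkx2-2 and Nkx2-9) and 1 at a q-value of at most 1e-05 (Nkx2-9). In ppm of covered bases it was 4, without Nkx2-9, whose groups then overlapped (-58.9 ppm). It was 7 without PBS replicate 2 (with Nkx2-1 and Nkx3-2 added) and 7 without CTX replicate 2 (with Nkx3-2 and Nkx6-1 added). Leaving a library out can only keep or raise this count, since fewer values have to lie apart. For these alternatives no share over all protein-coding genes is given, so the counts say nothing particular about the Nkx genes. The number of genes with a peak in 1 group alone was 0 to 1 with a library left out, and it was 1 (Nkx6-2) without CTX replicate 2. In ppm of covered bases, Nkx2-1 and Nkx6-1 were higher in the CTX group by 82.9 and 43.5. With a library left out, the Nkx6-1 difference ranged from -677 bp (without CTX replicate 2) to 76.2 bp (without CTX replicate 3). The causes of these shifts were not tested.

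Same-numbered libraries did not deviate together, with correlations of -0.0127, -0.106 and -0.0739 over genes, so the numbers gave no pairing. With the number as a replicate block the difference in covered bases was -5667 bp with an SD of 3899 bp over the 3 pairs, and no call changed, since the smallest p-value that 3 pairs allow is 0.25. The RefSeq mRNA start, chosen after seeing the data, gave -5135 bp. A peak list records only what was called, so differences below the calling threshold could not be seen, and neither test could pass 0.05 with 3 libraries per group.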
